A study of Mus musculus with 2 samples.

Results

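The smooth muscle contractile genes were described in RNA sequencing of mouse cavernous endothelial cells (MCECs) kept in high glucose, and 10 genes were taken by name from the 23183 gene symbols of the series. They were Acta2, Actg2, Myh11, Myl9, Tagln, Cnn1, Cald1, Tpm1, Tpm2 and Des, a set of contractile genes of which many depend on serum response factor (SRF). They were chosen by name with earlier results of these libraries known, among them the FPKM ratios given here, so their levels and ratios are a description. MCECs are primary cultures grown out of penis tissue, with mice of 8 weeks named in the study's methods and C57BL/6J as their strain. The HG+HBS library came from cells in 30 mM glucose given HEPES-buffered saline (HBS), the vehicle. The HG+PC-NVs library came from cells in the same glucose given 1 µg/mL of PC-NVs, vesicle-like particles made by pressing cultured cavernous pericytes through membranes. The methods put RNA isolation 72 hours after glucose and 24 hours after PC-NVs, while the labels give 5 days of glucose. For the glucose experiments in general, the methods also describe 24 hours without serum before the glucose. Below, values with HBS are from the HG+HBS library and values with PC-NVs from the HG+PC-NVs library. There was 1 library per condition, so no difference could be set against the spread between cultures, and neither source says whether cultures of several animals were pooled. The intervals below cover counting error only.

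Smooth muscle cells contract by sliding filaments of smooth muscle actin along smooth muscle myosin, with tropomyosin, caldesmon, calponin and transgelin lying on or beside the actin filament and desmin tying the filaments together. Calcium acts through myosin light chain kinase, which phosphorylates the regulatory light chain of myosin. Many of these genes are switched on by SRF, which binds a short DNA element called the CArG box and works with the cofactors myocardin, found in muscle, and the myocardin-related factors MRTF-A and MRTF-B, which respond to the state of the actin cytoskeleton. Pericytes, myofibroblasts and cultured cells of other kinds can also express Acta2, Tagln and Myl9, and Cald1, Tpm1 and Tpm2 give rise to non-muscle isoforms too.

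Levels are in the authors' normalized FPKM (fragments per kilobase of transcript, scaled to library size), with the transcript rows of a gene summed, and can be compared between genes since they are per length. Low values stepped in multiples of a fixed amount, which put the depth near 13300000 fragments with HBS and 11600000 with PC-NVs and gave approximate fragments per gene. Of the 16 endothelial markers listed, 4 were above 1 FPKM in both libraries and 10 below 1 FPKM in both, with a summed level of 41.8 FPKM with HBS and 32.0 FPKM with PC-NVs. Kdr stood at 0.518 and 0.438 FPKM and Vwf at 0.158 and 0.128 FPKM, while Cdh5 stood at 5.05 and 5.73 FPKM. On the log2(FPKM + 1) scale, 0 of the 5 tested endothelial markers were past 2-fold, against 0.798% lower and 2.38% higher among all tested genes. Of the 5, 4 were below 0, beside 6078 of all 11785 tested genes, and the median ratio of the 5 was -0.25. The lowest was Plvap, at 4.90 and 2.36 FPKM (-0.81), which is 2.07-fold lower as a ratio of FPKM, followed by Esam, at 17.4 and 11.7 FPKM (-0.53). All 11 fibroblast markers were above 1 FPKM in both libraries, with a summed level of 2263 FPKM with HBS and 2573 FPKM with PC-NVs. Past 2-fold, 1 was higher (Dcn, decorin, at 623 and 1283 FPKM) and 0 lower, against 2.38% and 0.798% of all tested genes. The higher sum rests on Dcn, since 9 of the 11 had ratios below 0 on the log2(FPKM + 1) scale, with a median of -0.21, among them Col1a2, a chain of type I collagen, at 312 and 198 FPKM (-0.65). Most listed markers of the labelled cell type were thus weakly detected, among them Pecam1 at 1.05 and 0.938 FPKM. Those above 1 FPKM in both libraries were Esam, Cdh5, Plvap and Egfl7, the last at 9.48 and 8.57 FPKM. In bulk RNA, fewer cells of a type and less RNA per cell cannot be told apart.

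The 10 genes fell into separate levels. Cald1, Tpm1 and Tpm2 were abundant and together made up 90.4% of the summed level of the 10 genes with HBS and 96.5% with PC-NVs. Acta2, Tagln and Myl9 stood at moderate levels and were lower in HG+PC-NVs. Des and Cnn1 were near or below 1 FPKM and also lower, and Actg2 and Myh11 were close to absent in both libraries. Summed over the 10 genes, the level was 615 FPKM with HBS and 590 FPKM with PC-NVs, 0.118% and 0.102% of the total of each library.

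**Figure D1:**
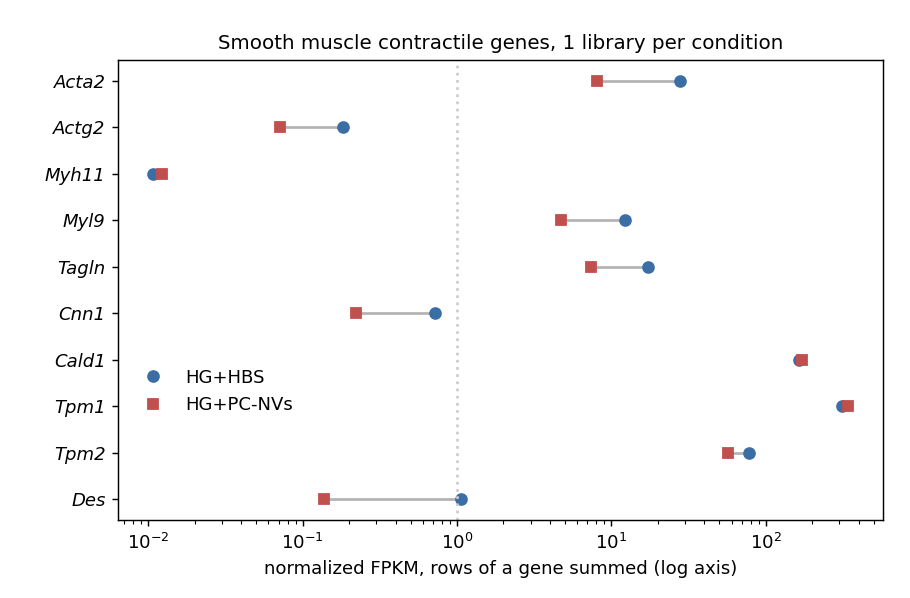
Level of each of the 10 genes in normalized FPKM on a log axis, with a circle for the HG+HBS library and a square for the HG+PC-NVs library. Acta2, Myl9, Tagln, Cnn1, Tpm2, Des and Actg2 lay to the left in HG+PC-NVs, and the pairs of Cald1, Tpm1 and Myh11 lay close together; the dotted line marks 1 FPKM.

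A gene was tested if its mean log2(FPKM + 1) over the 2 libraries was at least 1, which 11785 genes and 6 of the 10 members passed. Cnn1, Myh11, Des and Actg2 did not pass. On the log2(FPKM + 1) scale, 3 of the 6 tested members were lower by over 2-fold in HG+PC-NVs, against 0.798% of all tested genes, and 0 were higher by over 2-fold, against 2.38% of all tested genes. At 1.5-fold the count was again 3 lower and 0 higher, against 3.57% and 5.33% of all tested genes. The median log2 ratio of the 6 was -0.78, and that of all tested genes was -0.01, with a median absolute log2 ratio of 0.16. Since the members were chosen with these values known, nothing is read from the counts.

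**Figure D2:**
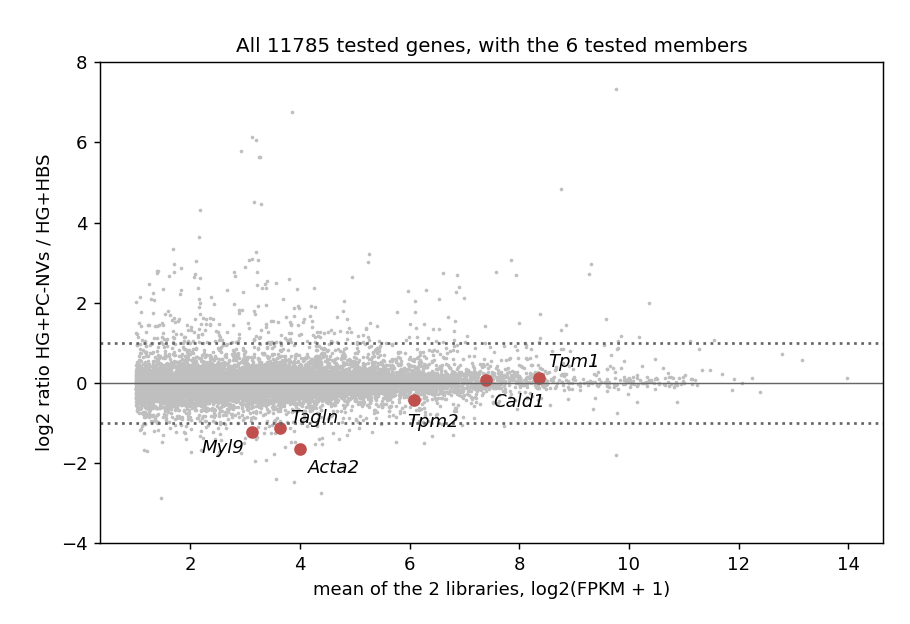
Log2 ratio of HG+PC-NVs over HG+HBS on the log2(FPKM + 1) scale against the mean level of the 2 libraries, for the 11785 tested genes (grey points) and the 6 tested members (red circles). Acta2, Myl9 and Tagln lay below the dotted line of a 2-fold difference, and Cald1, Tpm1 and Tpm2 lay within it.

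Acta2 encodes smooth muscle alpha-actin, the actin of the contractile filament, and lies on the reverse strand of chromosome 19 from 34241090 to 34255590 (GRCm38, GENCODE M21). Its level was 27.6 FPKM with HBS and 8.02 FPKM with PC-NVs, from about 748 and 189 fragments. As a ratio of FPKM this was 3.44-fold lower in HG+PC-NVs, with a 95% interval for counting error of 2.94 to 4.07. On the log2(FPKM + 1) scale the ratio was -1.67, which ranked 19 from the lowest of the 11785 tested genes. By level among all 23183 symbols, Acta2 went from rank 2950 in HG+HBS to rank 7114 in HG+PC-NVs. Actg2, the gamma smooth muscle actin of gut and other visceral muscle, lies on the reverse strand of chromosome 6 from 83512905 to 83536265 and was listed at 0.183 and 0.0710 FPKM, about 3 fragments and 1 fragment. The interval of its FPKM ratio ran from 0.00728 to 4.76, so no difference was detectable at this depth.

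Myl9 encodes the regulatory light chain of smooth muscle myosin, the chain that myosin light chain kinase phosphorylates, and lies on the forward strand of chromosome 2 from 156775420 to 156781658. Its level was 12.3 FPKM with HBS and 4.68 FPKM with PC-NVs, from about 185 and 61 fragments. The FPKM ratio was 2.63-fold lower in HG+PC-NVs (95% interval for counting error 1.97 to 3.59), and the ratio on the log2(FPKM + 1) scale was -1.23, at rank 55 from the lowest. Myh11, the smooth muscle myosin heavy chain a specific marker of the contractile state, lies on the reverse strand of chromosome 16 from 14194535 to 14291372 and was listed at 0.0108 and 0.0122 FPKM, about 1 fragment in each library. The motor of smooth muscle was therefore close to undetected in both libraries, while a light chain that pairs with it was measured in both.

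Tagln encodes transgelin (SM22-alpha), an actin-binding protein of the thin filament, and lies on the reverse strand of chromosome 9 from 45929619 to 45936058. Its level was 17.3 FPKM with HBS and 7.34 FPKM with PC-NVs, from about 367 and 136 fragments. The FPKM ratio was 2.36-fold lower (95% interval for counting error 1.93 to 2.89), and the log2(FPKM + 1) ratio was -1.13, at rank 68 from the lowest. Cnn1, calponin 1, which binds actin and slows the myosin motor, lies on the forward strand of chromosome 9 from 22099216 to 22109630. It was listed at 0.722 FPKM with HBS and 0.221 FPKM with PC-NVs, about 23 and 6 fragments, an FPKM ratio 3.26-fold lower with an interval of 1.32 to 10.03 for counting error. Its ratio on the log2(FPKM + 1) scale, which flattens low genes, was -0.50.

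Des encodes desmin, the intermediate filament protein of muscle cells, and lies on the forward strand of chromosome 1 from 75360329 to 75368579. It was at 1.07 FPKM with HBS and 0.137 FPKM with PC-NVs, about 43 and 5 fragments. Its FPKM ratio was 7.77-fold lower (95% interval for counting error 2.98 to 24.3), more than that of Acta2, and its ratio on the log2(FPKM + 1) scale was -0.86. The intervals of Des and Acta2 overlap. Without the pseudocount, over genes with a mean of at least 0.1 FPKM, a setting chosen after the data had been seen, 6 of 9 members were lower by over 2-fold, against 5.55% of such genes. These were Acta2, Myl9, Tagln, Cnn1, Des and Actg2. Of them, Actg2 rests on about 3 fragments and 1 fragment and passed the 0.1 FPKM filter only through its level with HBS. Nothing is read from this count.

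**Figure D3:**
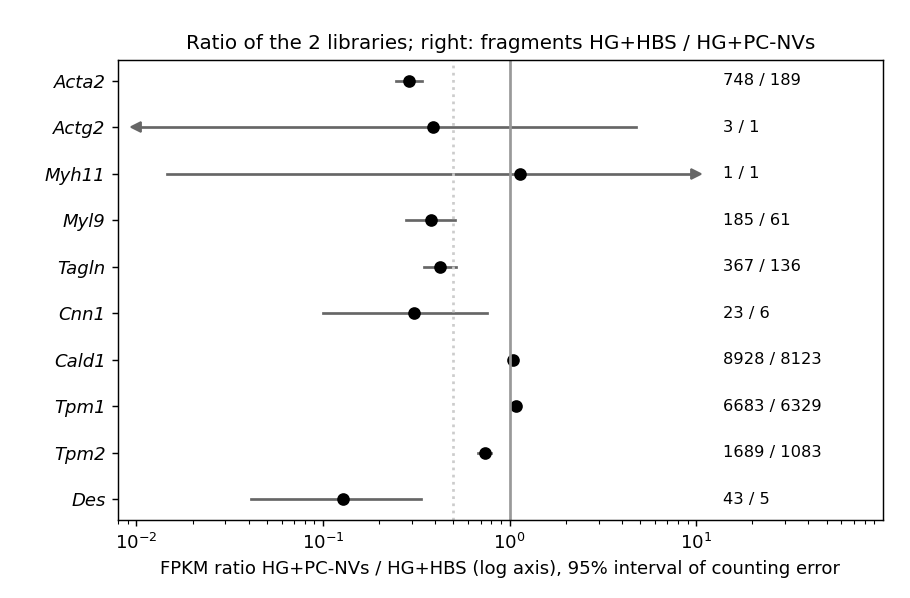
Ratio of FPKM in HG+PC-NVs over HG+HBS for the 10 genes, with no pseudocount, on a log axis. Points are the ratios, bars are 95% intervals for counting error (arrowheads where they run past 0.01 or 10), the numbers at the right are approximate fragments, and the intervals of Acta2, Myl9, Tagln, Cnn1, Tpm2 and Des lay below a ratio of 1, while those of Cald1 and Tpm1 lay just above it.

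Cald1 encodes caldesmon, which blocks the myosin binding sites on actin, and lies on the forward strand of chromosome 6 from 34598500 to 34775473. Its level was 164 FPKM with HBS and 171 FPKM with PC-NVs, a log2(FPKM + 1) ratio of 0.06. Tpm1 and Tpm2 encode tropomyosins, the rods that lie along the actin filament. Tpm1, on the reverse strand of chromosome 9 from 67022590 to 67049406, was at 314 and 341 FPKM, a log2(FPKM + 1) ratio of 0.12 that became -0.01 when ratios were centred on the housekeeping genes. Tpm2, on the reverse strand of chromosome 4 from 43514711 to 43523765, was at 77.8 and 57.2 FPKM, a log2(FPKM + 1) ratio of -0.44 and an FPKM ratio 1.36-fold lower (95% interval for counting error 1.26 to 1.47). Cald1 likewise went to -0.06 with that centring. Each of these 3 abundant genes thus differed by less than 1.5-fold between the 2 libraries. The files list Cald1 in 1 row, so its smooth muscle and non-muscle forms could not be separated.

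The 10 transcript rows of Tpm1 did not all move with their sum. Rows 1 and 2, ordered by level in HG+HBS, held most of the level, at 149.8 and 107 FPKM with HBS and 165.8 and 109.6 FPKM with PC-NVs. Row 3 stood at 37.0 and 25.2 FPKM, and row 4 at 8.71 and 6.18 FPKM. The 4 rows below 1 FPKM in HG+HBS were grouped by that low level, so they had little room to be lower in HG+PC-NVs. They summed to 0.302 FPKM with HBS and 24.5 FPKM with PC-NVs, or 0.0963% and 7.19% of Tpm1. Most of the sum with PC-NVs was row 7, at 0.228 FPKM with HBS and 19.7 FPKM with PC-NVs, a log2(FPKM + 1) ratio of 4.08. Among transcript rows of genes with more than 1 row and a mean log2 value of at least 1, 0.768% were higher by over 4-fold. Row 7 passed that filter only through its level in HG+PC-NVs, so nothing is read from its place beside this share. The 6 other rows summed to 313 and 316 FPKM. The files give no transcript identifier for a row, and tropomyosin isoforms share exons, so a row's share depends on how Cufflinks divided the reads and no isoform is named here.

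The 3 rows of Tpm2 were all lower in HG+PC-NVs. Row 1 stood at 60.4 and 48.6 FPKM, row 2 at 13.6 and 7.07 FPKM and row 3 at 3.73 and 1.55 FPKM. The leading row held 77.7% of Tpm2 with HBS and 84.9% with PC-NVs.

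**Figure D4:**
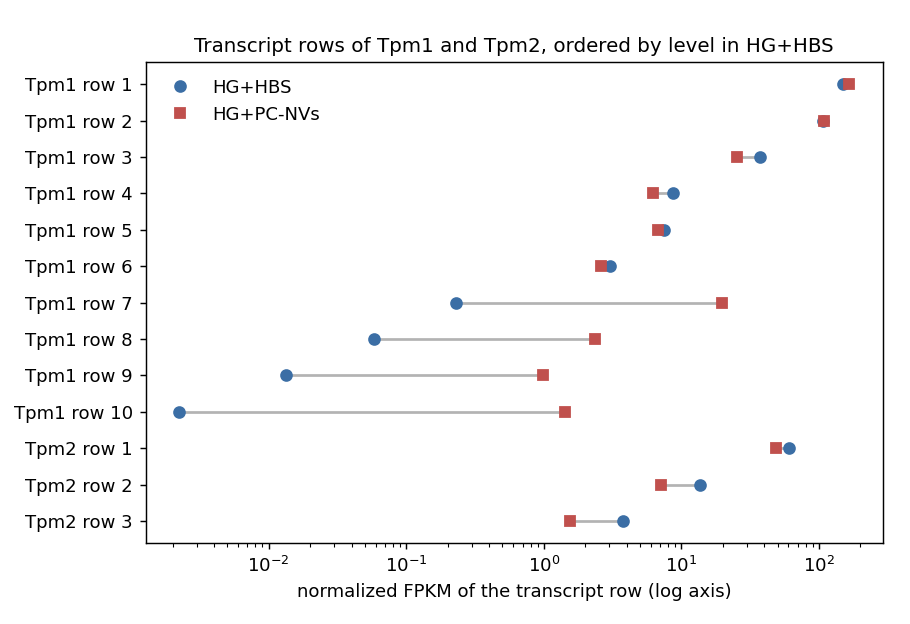
Level of the transcript rows of Tpm1 (10 rows) and Tpm2 (3 rows) in normalized FPKM on a log axis, ordered by level in HG+HBS, with a circle for HG+HBS and a square for HG+PC-NVs. The 4 rows of Tpm1 grouped by their low level in HG+HBS lay far to the right in HG+PC-NVs, and the 3 rows of Tpm2 lay to the left.

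Most of the 10 genes have paralogs used by many cell types, and outside the tropomyosins these were far more abundant. Acta2 and Actg2 together made up 1.40% of the summed actin level with HBS (95% Poisson interval 1.30 to 1.502%) and 0.425% with PC-NVs (0.367 to 0.490%), while Actb stood at 797 and 799 FPKM and Actg1 at 1162 and 1095 FPKM. Myl9 held 4.95% of the level of the regulatory light chains Myl9, Myl12a and Myl12b with HBS (4.29 to 5.68%) and 1.92% with PC-NVs (1.47 to 2.45%). Actb and Actg1 thus had log2(FPKM + 1) ratios of 0.00 and -0.08 where Acta2 had -1.67.

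Tagln held 9.02% of the transgelin level with HBS and 2.17% with PC-NVs. Here the paralog differed too, since Tagln2, which is broadly expressed, stood at 174 FPKM with HBS and 331 FPKM with PC-NVs, a log2(FPKM + 1) ratio of 0.92. The sum of Tagln and Tagln2 thus went opposite to Tagln. Among calponins, Cnn1 held 0.300% with HBS and 0.117% with PC-NVs. Its paralogs parted, with Cnn2 at 141 and 86.8 FPKM (log2(FPKM + 1) ratio -0.70) and Cnn3 at 99.1 and 103 FPKM (0.05).

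Des was set beside vimentin (Vim), the intermediate filament protein of mesenchymal and endothelial cells. Vim stood at 2230 FPKM with HBS and 1588 FPKM with PC-NVs, so Des held 0.0478% of their sum with HBS and 0.00864% with PC-NVs. Myh11 held 0.00663% and 0.0105% of the myosin heavy chain level, on about 1 fragment each, beside Myh9 at 116 and 86.7 FPKM and Myh10 at 46.0 and 30.04 FPKM. Tpm1 and Tpm2 differed from the others in holding a large part of their family, 41.0% of the tropomyosin level with HBS and 38.2% with PC-NVs, with Tpm3 and Tpm4 as the rest. The sum of Tpm1 and Tpm2 was 391 FPKM with HBS and 398 FPKM with PC-NVs. That of Tpm3 and Tpm4 was 563 and 643 FPKM, so the lower share was not a lower level of the members. Of the 12 non-muscle paralogs, 0 were past 2-fold in either direction. Among all tested genes 0.798% were lower and 2.38% higher by over 2-fold, so 0 of 12 was near those shares. The median log2(FPKM + 1) ratio of the 12 was -0.04.

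**Figure D5:**
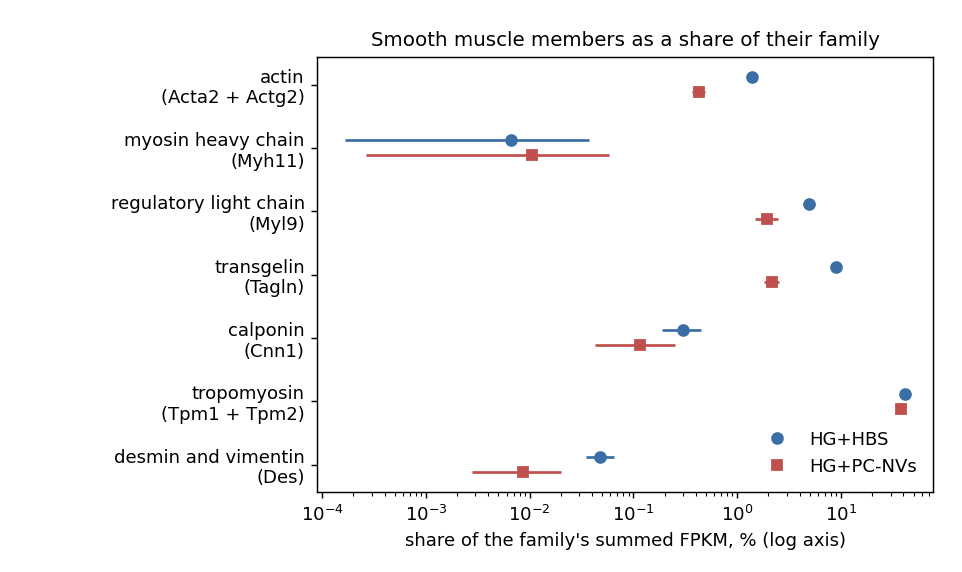
Share of each protein family's summed FPKM held by the smooth muscle members, in percent on a log axis, with circles for HG+HBS and squares for HG+PC-NVs. Bars are 95% Poisson intervals of the member's own fragments. The share was lower in HG+PC-NVs for actin, light chain, transgelin, calponin, tropomyosin and desmin. For tropomyosin, the summed level of Tpm1 and Tpm2 was not lower. The bars of myosin heavy chain overlap, as do those of calponin.

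Other genes of the contractile apparatus were often too low to be tested, and most of those tested had ratios below 0. Of 25 such genes, 11 were tested, and 10 of these were below 0, beside 6078 of all 11785 tested genes. The median log2(FPKM + 1) ratio of the 11 was -0.31, beside -0.01 for all tested genes. Among them, 2 were lower by over 2-fold and 0 higher, against 0.798% and 2.38% of all tested genes. The list was chosen with earlier results known, and Mylk, 1 of the 2, passed the filter only through its level with HBS. Nothing is read from these counts. Mylk, the kinase that phosphorylates Myl9, stood at 2.21 FPKM with HBS and 0.582 FPKM with PC-NVs (log2(FPKM + 1) ratio -1.02, about 230 and 53 fragments). Fhl1, a LIM-domain protein of muscle, stood at 7.25 and 3.06 FPKM (-1.02). Csrp1, another LIM-domain protein of smooth muscle, had 74.6 and 60.1 FPKM (-0.31), Pdlim7 34.1 and 40.1 FPKM (0.23) and Smtn, smoothelin, 25.3 and 21.2 FPKM (-0.24). Pgm5, found at muscle adherens junctions, did not pass the filter and stood at 1.91 and 0.324 FPKM. Fbxl22 did not pass it either and was higher in HG+PC-NVs, at 0.565 FPKM with HBS and 1.17 FPKM with PC-NVs. The FPKM ratio of Fbxl22 was 2.07, with an interval of 1.27 to 3.28 for counting error. Lmod1, leiomodin 1, which is abundant in smooth muscle, was at 0.0730 and 0.0846 FPKM, about 4 fragments in each library.

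SRF and the factors that work with or against it were measured next, since many of the 10 genes depend on SRF. Srf stood at 11.1 FPKM in both libraries, a log2(FPKM + 1) ratio of -0.01. Myocd, myocardin, was listed below 0.001 FPKM in both. Mrtfa (Mkl1 in the files) stood at 15.5 and 12.2 FPKM (-0.33) and Mrtfb (Mkl2) at 4.95 and 4.02 FPKM (-0.24). Fhl2, a LIM-domain protein that binds SRF and is itself a target of it, stood at 21.5 FPKM with HBS and 8.78 FPKM with PC-NVs, a ratio of -1.20 from about 426 and 152 fragments. Klf4, a repressor of smooth muscle genes, stood at 11.4 and 15.4 FPKM (0.40), and Elk3, which competes with myocardin factors for SRF, at 31.2 and 40.1 FPKM (0.35). The other tested factors had ratios of 0.34 (Tead1), 0.13 (Elk1), 0.06 (Foxo4), 0.06 (Yy1), 0.06 (Gata6) and -0.51 (Klf5). Of the 13 factors, 12 were tested, with 5 below 0 and 7 above 0, beside 6078 and 5707 of all tested genes. The median of the 12 was 0.06. Past 2-fold, 1 was lower and 0 higher, against 0.798% and 2.38% of all tested genes.

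Other known targets of SRF and the MRTFs went both ways. Of 13 listed, 12 were tested, and the median log2(FPKM + 1) ratio was -0.08. Past 2-fold, 1 was lower and 1 higher, against 0.798% and 2.38% of all tested genes. Ccn2 (Ctgf in the files), a matricellular protein, stood at 13.8 FPKM with HBS and 4.75 FPKM with PC-NVs (-1.37). Vcl, vinculin of focal adhesions, stood at 49.4 and 26.2 FPKM (-0.89). Fos, an immediate-early gene, was higher in HG+PC-NVs, at 3.74 and 8.66 FPKM (1.03), and Egr1 stood at 24.7 and 24.8 FPKM (0.01). Actn1, alpha-actinin, stood at 123 and 124 FPKM (0.00).

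Promoters were searched for the CArG box, in which CC and GG flank 6 bases that are each A or T, a pattern that reads the same on both strands. RefSeq promoters of GRCm38.p6 were matched by symbol for 7 of the 10 members, with 8 promoters, and Tagln, Myh11 and Actg2 had none. In the 250 bases before the start, 1.47% of the 32851 promoters held a box, and 8.59% held a box or a variant with 1 of the 6 bases not A or T, a search added after the data had been seen. Among the members, 1 of 8 promoters held a box, that of Myl9, and 2 of 8 held a box or a variant, those of Myl9 and Acta2. The Myl9 stretch at chr2:156775274-156775393 on the forward strand carries a box 161 bases before the start and a variant 99 bases before it. The variants of Acta2 lie 84 and 34 bases before the start that the RefSeq table uses, which is downstream of the GENCODE M21 start given above, so both lie within a GENCODE exon of Acta2. They are printed in windows of 30 bases on the reverse strand at chr19:34255438-34255467 and chr19:34255388-34255417. Capitals mark the box or variant, shown because they are the only such letters in the searched member promoters.
Myl9: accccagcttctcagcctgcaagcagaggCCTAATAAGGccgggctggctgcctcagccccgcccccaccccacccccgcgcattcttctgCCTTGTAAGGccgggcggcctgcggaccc
Acta2, 84 bases before: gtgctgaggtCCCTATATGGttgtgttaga
Acta2, 34 bases before: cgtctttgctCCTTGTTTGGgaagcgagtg

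Genes of the other lists were searched in the same way, and some held a full box. Windows of 30 bases are printed for those tested genes of the lists described here that held one, with the box in capitals, so that genes with ratios below, near and above 0 can be read side by side. The windows lie at chr1:43163973-43164002 (Fhl2, reverse strand), chrX:56779571-56779600 (Fhl1, forward), chr14:20929161-20929190 (Vcl, forward), chr10:79988534-79988563 (Cnn2, forward), chr16:57549170-57549199 (Filip1l, forward), chr17:46556205-46556234 (Srf, reverse) and chr11:120348566-120348595 (Actg1, reverse).
Fhl2: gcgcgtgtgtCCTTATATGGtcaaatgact
Fhl1: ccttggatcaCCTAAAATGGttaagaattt
Vcl: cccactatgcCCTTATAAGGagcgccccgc
Cnn2: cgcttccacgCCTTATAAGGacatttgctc
Filip1l: atgccgcgcgCCTTATAAGGctgagcggtg
Srf: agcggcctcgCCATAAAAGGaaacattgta
Actg1: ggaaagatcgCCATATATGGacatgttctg
Their log2(FPKM + 1) ratios were -1.20 for Fhl2, -1.02 for Fhl1, -0.89 for Vcl, -0.70 for Cnn2, 0.31 for Filip1l, -0.01 for Srf and -0.08 for Actg1, beside -1.23 for Myl9. Not shown are a further box of Fhl2, in the promoter of another of its starts, and a further box of Srf, 82 bases before its start. Vcl, Cnn2 and Filip1l carry the same 10 letters, with ratios on both sides of 0. Over all tested genes with a box, 126 in number, 3 were lower by over 2-fold (2.38%: Myl9, a member chosen with its ratio known, Fhl2 and Fhl1) and 2 were higher (1.59%), with a median log2(FPKM + 1) ratio of -0.03. Of the 8878 tested genes with a promoter and no box, 57 were lower (0.642%) and 203 higher (2.29%), with a median of -0.01. A match is a description of letters, not a site shown to bind SRF.

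Markers of other cells were set beside the lower genes. Of 11 pericyte markers, 9 were tested, 3 were higher by over 2-fold, against 2.38% of all tested genes, and 0 lower, against 0.798%. The others were mostly lower, with 5 of the 9 below 0 and a median log2(FPKM + 1) ratio of -0.18. Of all 11785 tested genes, 6078 were below 0. Rgs5 stood at 1.69 FPKM with HBS and 7.23 FPKM with PC-NVs, Kcnj8 at 7.98 and 20.4 FPKM and Ndufa4l2 at 3.83 and 17.3 FPKM, while Cspg4 (NG2) stood at 20.4 and 12.2 FPKM and Anpep (CD13) at 26.7 and 13.7 FPKM (-0.91). Pdgfrb, a defining pericyte receptor, stood at 38.4 and 33.7 FPKM. The summed level of the pericyte list was 106 FPKM with HBS and 113 FPKM with PC-NVs, with Higd1b at 0 in both. The list thus did not move in 1 direction beside Acta2 and Tagln. Of 8 leukocyte markers, 6 were tested and 1 was higher by over 2-fold, against 2.38% of all tested genes. This was Adgre1, F4/80 of macrophages, at 7.44 and 42.5 FPKM. Of the 6, 4 were below 0, with a median log2(FPKM + 1) ratio of -0.21, among them the macrophage genes Cd68, at 36.2 and 26.3 FPKM (-0.44), and Csf1r, at 8.39 and 6.20 FPKM (-0.38). The summed level of the leukocyte list was 297 and 295 FPKM, with Cd3e at 0 in both. The part of any cell type in the lower contractile genes was not tested.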

How the data were processed

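RNA of MCECs was sequenced as paired reads from 1 library per condition. By their methods, the authors removed adapters and low-quality reads, mapped with TopHat, took read counts through BEDTools and FPKM through Cufflinks, and applied a normalization they term quantile, in edgeR. The labels name mm10, and tool versions and the annotation are not given in the sources used here. The authors deposited log2 values, taken from their range as log2(normalized FPKM + 1), in 33299 transcript rows. Quantile normalization of the deposited values moved the log2 ratio of B2m from 0.84 to 0.52. The 2 deposited libraries thus did not share 1 distribution.

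Rows of a symbol were converted back and summed, and ratios are HG+PC-NVs over HG+HBS with a pseudocount of 1. No p-value was computed. The worth of 1 fragment was the commonest low value of FPKM times length over 2189 genes with a single transcript over 1500 nt. Fragments used mean lengths of RefSeq-paired GENCODE M21 transcripts. Ratio intervals are exact binomial (Clopper-Pearson) at 95%, and share intervals are Poisson. The members and lists were chosen with earlier results of these data known. Named genes are the 10 members, genes of the lists and the 3 genes nearest to the members' median ratio. A gene list, with 1 tested gene that held a CArG box and had a ratio above 0, and a sequence comparison are not reported here. The calculations were tested on simulated data. Calculations used pandas 2.3.3 and scipy 1.17.1 on numpy 2.4.6 under Python 3.11.15, with plots by matplotlib 3.10.9.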

Additional observations from a re-analysis of the deposited data

How the results depend on the processing

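The count of 3 members lower by over 2-fold was also reached with quantile normalization, upper-quartile scaling, centring on all tested genes or on the housekeeping genes, a pseudocount of 0.1, the highest row per gene, a 1.5-fold threshold, no filter and a mean log2 value of at least 3. It was 0 with a 4-fold threshold. Without a pseudocount, over genes with a mean of at least 0.1 FPKM, it was 6 of 9, a setting chosen after seeing the data. Actg2, among those 6, passed that filter only through its level with HBS. The median log2 ratio was -0.47 over all 10 members with no filter, which adds 4 low genes, and ran from -0.91 to -0.72 under the normalizations, pseudocount and row choice. Over the 6 normalizations, pseudocount and row choice, the log2 ratio ran from -1.79 to -1.66 for Acta2, from -1.37 to -1.22 for Myl9, from -1.26 to -1.12 for Tagln and from -2.30 to -0.85 for Des. Centring on the housekeeping genes moved the median of all tested genes to -0.13 and turned Cald1 and Tpm1 to -0.06 and -0.01. Of 60 such values for the members, 48 stayed within counting error. The other 12 came with 4 of the settings. Centring on the housekeeping genes moved Actg2, Myh11, Cald1, Tpm1, Tpm2 and Des, and a pseudocount of 0.1 moved Actg2, Cnn1 and Des. Quantile normalization moved Cald1 and Tpm1, and the highest row moved Tpm2. No paired analysis was possible because each condition holds a single library, which also left no replicate to omit. Depth limits Actg2 and Myh11, at 3 fragments or fewer in each library.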

Other observations

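Striated muscle genes were listed as a check on other muscle types. Of 11 such genes, 5 were at 0 in both libraries, among them Actc1, Myog and Myod1, and 10 were below 1 FPKM in both. Tnnc1, a troponin also found in slow muscle and heart, stood at 1.62 FPKM with HBS and 0.952 FPKM with PC-NVs. Acta1, the skeletal muscle actin, stood at 0.584 and 0.247 FPKM.

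The 3 genes on no list, of mean log2 level 6 or more, whose log2(FPKM + 1) ratio lay nearest to the members' median of -0.78 were Cd248, Tslp and Gas6. Cd248, endosialin of perivascular cells and fibroblasts, stood at 107 FPKM with HBS and 62.1 FPKM with PC-NVs (-0.78). Tslp, a cytokine, stood at 117 and 67.9 FPKM (-0.78), and Gas6, a ligand of TAM receptors, at 102 and 58.2 FPKM (-0.80). The likeness is in the ratio of 2 libraries only.

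The 15 housekeeping genes had a median log2(FPKM + 1) ratio of 0.13, with 0 past 2-fold in either direction. Among all tested genes 0.798% were lower and 2.38% higher by over 2-fold. B2m and Pgk1 had the highest ratios among the housekeeping genes, 0.84 and 0.85.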
